A study of Mus musculus with 6 samples.

Results

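The genes described here build, fold and quality-check proteins in the endoplasmic reticulum (ER), carry proteins into it, and sense its stress. A set of 36 was listed: 16 chaperones and folding enzymes, 4 genes of ER-associated degradation, 7 sensors and factors of the unfolded protein response, and 9 subunits of the translocon and its associated TRAP complex. The list was chosen by measured values of the comparison below, because probe sets of Prdx4 and Hyou1 had read higher and one of Ssr1 lower in the mutant. The members' values and calls in that comparison are therefore a description and no independent evidence. Every probe set annotated to exactly 1 of these genes was taken, which gave 95 probe sets for 35 of the 36 genes, out of 18193 singly named genes on the array. Sec61g was named only on a probe set shared with other genes and is given no value. Of the 95 probe sets, 82 from 34 genes had a mean bright enough to be tested and 13 were dimmer.

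Transcripts were measured on 6 Affymetrix arrays of whole-brain RNA from C57/bl6 mouse embryos at stage E18.5, shortly before birth. The wild-type group held 3 embryonic brains (genotype Wt) and the other group 3 brains carrying the Foxf2 mutation (genotype Foxf2 Mutant), with 1 array per sample. The labels name no treatment and describe neither the allele, the litters, nor whether embryos were pooled, so the spread between arrays may be partly technical. Values are MAS5 intensities, the authors' linear probe set signals, scaled to a common trimmed mean. Differences are mutant minus wild type on log2(intensity + 16), which understates changes of dim probe sets. "Past the threshold" means an adjusted p under 0.05 in limma over 27022 probe sets. Arrays correlated at 0.977 to 0.989. The brighter Foxf2 probe set read 13.8 to 24.4 in wild-type and 3.3 to 8.1 in mutant brains, and the labels do not say whether it lies in the altered part of the gene. All 12 neuronal and 10 astrocyte and radial glia markers were bright enough to be tested. Muscle markers summed to 1629 on mutant array 3 against 116 to 135 elsewhere, and pituitary markers to 2178 on wild-type array 3 against 225 to 473 elsewhere.

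Proteins that enter the ER pass through the Sec61 channel and are bound by chaperones such as BiP, the product of Hspa5, while protein disulfide isomerases form their disulfide bonds. When unfolded proteins accumulate, the sensors IRE1 (Ern1), PERK (Eif2ak3) and ATF6 set off the unfolded protein response. ATF6 and spliced XBP1 then raise chaperone and degradation genes through ER stress elements in their promoters, while ATF4, made under PERK signalling, raises Ddit3 and Trib3. Sensor activation, Xbp1 splicing and ATF4 translation are not read by these intensities.

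The ER stress element (ERSE), the sequence through which such genes respond, was searched as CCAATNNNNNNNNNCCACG, and the shorter ERSE-II as ATTGGNCCACG, on both strands of RefSeq promoter windows of 300 bases (GRCm38.p6, 250 before to 50 after the start). An ERSE occurred in 8 of the 31 members with a window and in 0.119% of all 32851 windows. An ERSE-II occurred in 2 of the 31, Herpud1 and Dnajb11, and in 0.0365% of all windows. The members with an ERSE were Hspa5, Hsp90b1, Calr, Canx, Pdia6, Dnajc3, Creld2 and Syvn1. Hyou1, Manf, Sec61a1, Ssr2 and Atf6 had no window in the table. The stretches below show the element, in capitals, in the members whose values the text turns on. In Calr, Creld2 and the second element of Hsp90b1 it runs on the opposite strand, so the capitals show its complement.
Hspa5 (chr2:34772020-34772048, plus strand): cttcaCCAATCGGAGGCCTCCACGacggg
Hsp90b1 (chr10:86705528-86705661, minus strand): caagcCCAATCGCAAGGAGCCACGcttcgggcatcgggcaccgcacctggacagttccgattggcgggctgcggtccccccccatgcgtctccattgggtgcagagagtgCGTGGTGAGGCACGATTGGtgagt
Calr (chr8:84847070-84847098, minus strand): caacgCGTGGTCGACCCTCATTGGcccat
Canx (chr11:50325795-50325823, minus strand): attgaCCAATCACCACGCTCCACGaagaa
Pdia6 (chr12:17266486-17266514, plus strand): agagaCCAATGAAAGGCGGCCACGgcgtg
Dnajc3 (chr14:118937822-118937850, plus strand): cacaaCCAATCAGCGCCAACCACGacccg
Creld2 (chr15:88819515-88819543, plus strand): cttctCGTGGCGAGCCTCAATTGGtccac
Syvn1 (chr19:6046527-6046555, plus strand): cgcaaCCAATCGGCGGTAGCCACGggaac
Herpud1 (chr8:94386372-94386392, plus strand): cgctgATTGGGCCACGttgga

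Over the whole set, 3 of the 82 tested probe sets rose in the mutant, one each of Prdx4, Hyou1 and Hspa5, and 1 fell, that of Ssr1. Among all tested probe sets 0.366% were higher and 0.0222% lower at the same threshold, and the Prdx4, Hyou1 and Ssr1 probe sets are those that chose the list. Of the 82, 12 read higher in every mutant array than in any wild-type array and 6 read lower in the same sense, where the whole array had 10.9% and 9.38%. The median log2 difference was -0.03 over the members and -0.01 over all tested probe sets. At an unadjusted p under 0.05 stood 10 higher and 3 lower, where the whole array had 7.78% and 5.80%. Without Prdx4, Hyou1 and Ssr1 the list held 72 probe sets, of which 1 rose and 0 fell, with 9 separated higher and 5 lower. The other 78 of the full list lay between -0.38 and 0.53, with 70 within 0.25 of no difference. With any 1 of the 6 arrays left out, no member probe set stayed past the threshold, except that of Prdx4 without mutant array 1. No member passed without the brightness filter or without the variance trend of the fit, only Ssr1 passed after median centring, and only Hyou1 with an offset of 64.

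**Figure D1:**
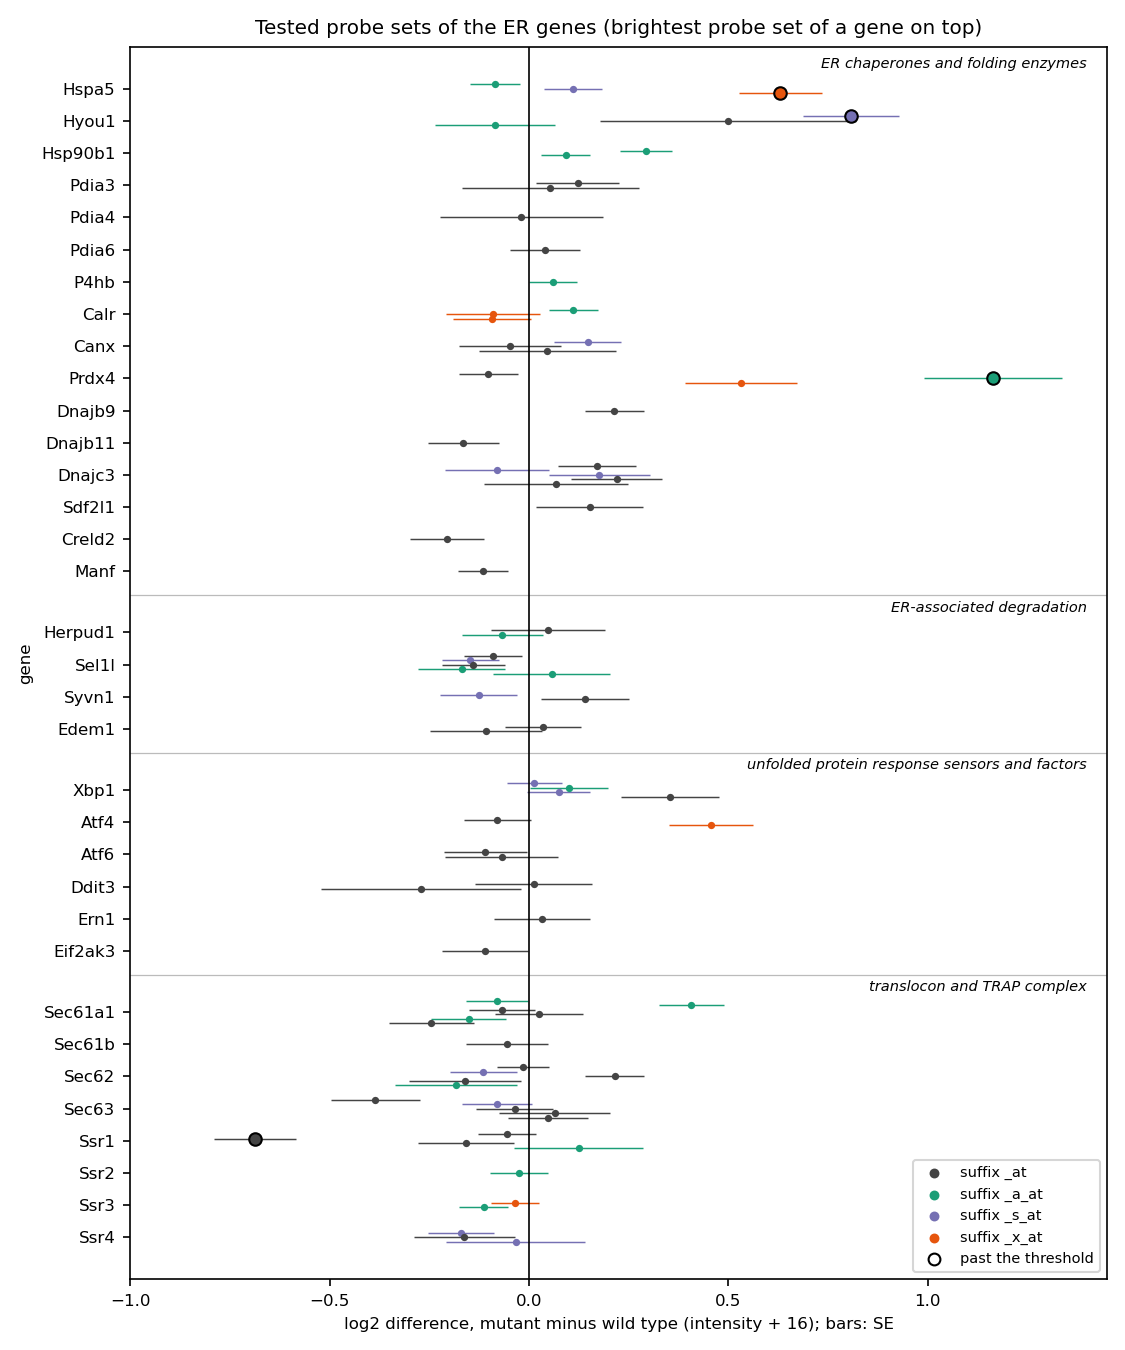
Log2 difference of each tested probe set, mutant minus wild type, on log2(intensity + 16), with its SE; points are grouped by gene and role and coloured by probe set suffix, and black rings mark the 4 probe sets past the threshold. Most of the 82 points lie within 0.25 of zero, and the ringed points of Prdx4, Hspa5 and Ssr1 stand apart from other points of the same gene.

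The chaperones gave all 3 rises. Hspa5, the master ER chaperone BiP, was read by 3 probe sets that differed. Its brightest (1416064_a_at) read 1953, 1911 and 1786 in the wild-type brains and 1700, 1869 and 1752 in the mutant brains, a log2 difference of -0.09 ± 0.06 (SE, n = 3 per group). The groups overlapped there, and mutant array 1 was the lowest. The second (1427464_s_at) read 689, 768 and 691 against 730, 764 and 830, a difference of 0.11 ± 0.07, also with overlap. The dimmest (1447824_x_at) read 94.1, 92.7 and 106 against 144, 157 and 181, a difference of 0.63 ± 0.10 without overlap. This last one was past the threshold and the nearest to it from inside among the members. Probes of suffix _x_at can match other transcripts, and 28.8% of all tested _x_at probe sets read higher without overlap, against 9.33% of plain _at probe sets. The part of such matches in the Hspa5 value was not tested.

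Hyou1, the large chaperone that exchanges nucleotide on BiP, read 88.9, 125 and 121 in the wild-type brains and 191, 209 and 217 in the mutant brains on its brightest probe set (1423291_s_at). The difference was 0.81 ± 0.12 (SE), and the lowest mutant value lay well above the highest wild-type value. The other probe sets of Hyou1 were dim, with 5.2, 16.1 and 33.5 against 18.3, 49.2 and 26.7 on one (0.50 ± 0.32) and a difference of -0.08 ± 0.15 on the other. Both overlapped between groups, so the rise of Hyou1 rests on 1 probe set.

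Prdx4, the peroxiredoxin of the ER that uses peroxide to drive disulfide formation, showed the widest split between probe sets of any member, 1.27 log2 units. On 1416166_a_at it read 37.0, 37.5 and 47.3 in wild-type and 84.3, 108 and 147 in mutant brains, a difference of 1.16 ± 0.17 (SE). On 1435731_x_at it read 25.6, 32.9 and 41.0 against 57.5, 53.3 and 52.9 (0.53 ± 0.14), also without overlap but not past the threshold. Its brightest probe set (1416167_at) read 307, 354 and 336 against 313, 299 and 312, a difference of -0.10 ± 0.07 with overlapping groups. The 2 dimmer probe sets were thus high on all mutant arrays, while the brightest was not.

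**Figure D2:**
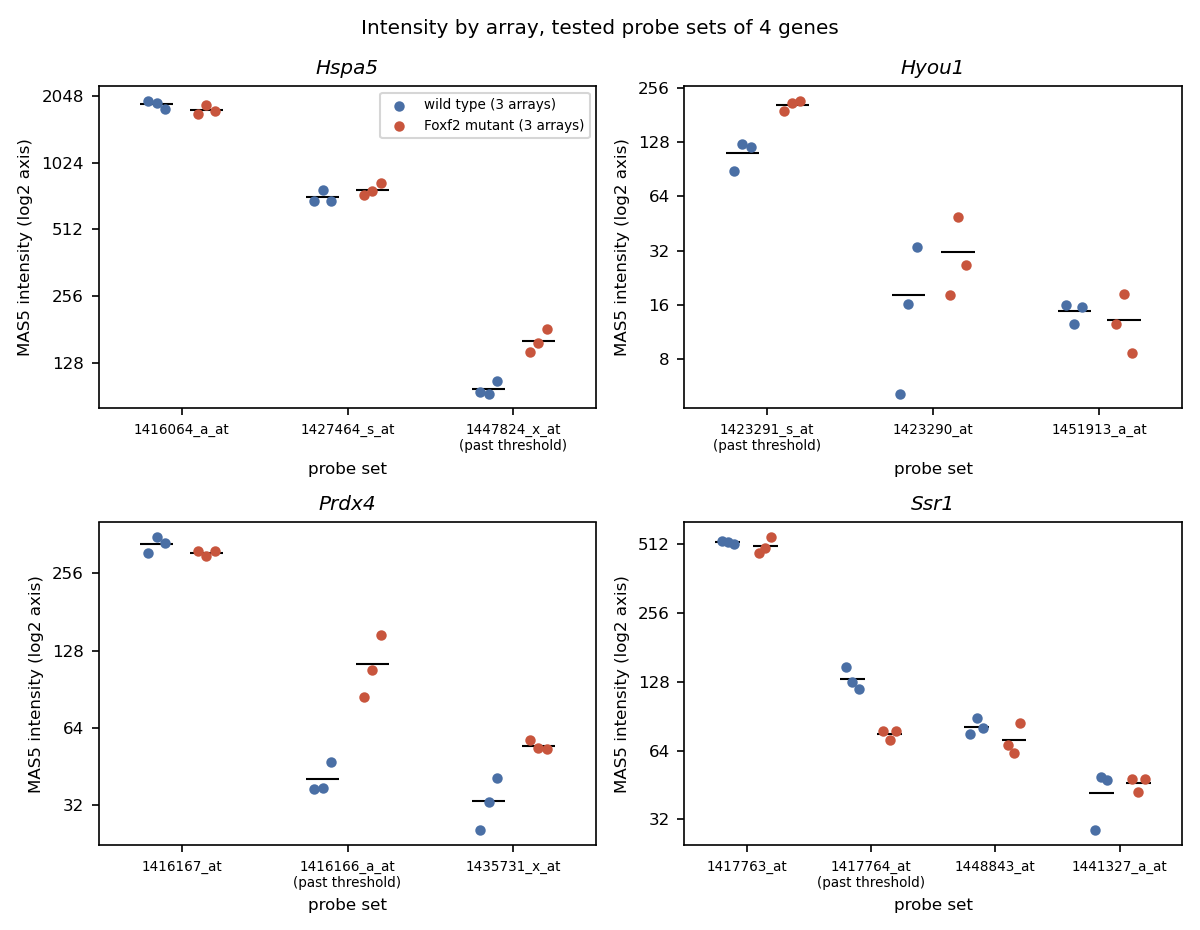
MAS5 intensity on a log2 axis for each tested probe set of Hspa5, Hyou1, Prdx4 and Ssr1 (x axis), with 1 point per array, 3 wild-type and 3 mutant, and lines at the group means. The probe sets past the threshold separate the groups, while the brightest probe sets of Hspa5, Prdx4 and Ssr1 overlap.

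Hsp90b1, the ER form of HSP90 (Grp94), read 1047, 951 and 996 in wild-type and 1162, 1290 and 1229 in mutant brains on its brightest probe set. The groups did not overlap and the difference was 0.29 ± 0.07 (SE), not past the threshold. Its other probe set read 696, 718 and 656 against 711, 749 and 748 (0.09 ± 0.06), with wild-type array 2 above the lowest mutant value. Dnajb9, a BiP co-chaperone and textbook target of spliced XBP1, had 1 tested probe set, which read 370, 376 and 385 against 422, 418 and 484. All mutant arrays were higher, by 0.21 ± 0.07, not past the threshold.

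The lectin chaperones Calr and Canx, which hold glycoproteins until they fold, gave smaller values. Calr read 1267, 1250 and 1170 against 1272, 1331 and 1383 on its brightest probe set (0.11 ± 0.06, SE), and -0.09 on both of its _x_at probe sets. Canx had differences of 0.15, -0.05 and 0.05 on its 3 probe sets, all with overlap. Of the disulfide isomerases, Pdia3 read 1062, 970 and 815 against 1145, 990 and 960 (0.12 ± 0.10). Pdia6 had 0.04, P4hb 0.06 and Pdia4 -0.02 on the brightest probe set of each, and wild-type and mutant arrays were interleaved. None of the 4 isomerases had a tested probe set with separated groups.

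Other stress-responsive folding genes went both ways. Manf, a secreted survival factor released under ER stress, read 816, 879 and 782 in wild-type and 745, 767 and 769 in mutant brains, the only chaperone-group probe set lower without overlap (-0.12 ± 0.06, SE). Creld2, an ER stress-induced disulfide-linked factor, read 153, 186 and 180 against 146, 155 and 141 (-0.20 ± 0.09), with wild-type array 1 below mutant array 2. Dnajb11, a BiP co-chaperone, had -0.16 ± 0.09. Sdf2l1, another gene induced by ER stress, was dim, at 20.9, 17.4 and 21.5 against 20.2, 23.7 and 28.1 (0.15 ± 0.13). Dnajc3, the PERK inhibitor p58IPK, had 5 tested probe sets between -0.08 and 0.22, 4 of them positive, with 0.17 on the brightest. At 0.22, 1 of them was higher without overlap. None of these genes passed the threshold.

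Across the 32 tested chaperone probe sets, 3 rose (9.4%), 0 fell and 29 did not pass, where the whole array had 0.366% and 0.0222%. Groups were separated for 8 higher (25%) and 1 lower (3.1%), where the whole array had 10.9% and 9.38%. The median difference was 0.08 against -0.01 over all tested probe sets. Leaving out Prdx4 and Hyou1, which chose the list, left 26 probe sets with 1 rise, 5 separated higher, 1 lower and a median of 0.06. The summed level of the 16 brightest chaperone probe sets was 9633 to 9829 in wild-type and 10115 to 10451 in mutant brains. The groups stayed separated after quantile normalization, at 9701 to 9921 against 10116 to 10298. They overlapped once each array was divided by its median (9868 to 10245 against 9708 to 10391). These scalings of sums were added after the values were seen. After quantile normalization 9 of the 32 probe sets were separated higher and 1 lower, with a median of 0.08. After centring each array on its median, 6 were separated higher and 5 lower and the median was 0.03. Shares of separated probe sets over the whole array were not computed for these scalings. That centring moved the median of all tested probe sets from -0.01 to -0.06. Within arrays, the median deviation of these probe sets from their 6-array mean was -0.07, -0.06 and -0.02 in wild-type and -0.02, 0.04 and 0.12 in mutant brains. Mutant array 3, which also carried the muscle transcripts, was the highest array for 13 of the 32. Among all 27022 tested probe sets mutant array 3 was the highest for 5021, and a link to the muscle transcripts was not tested. Without it the median was 0.07, with 8 separated higher and 1 lower. Groups separate more easily with fewer arrays, so these counts are not comparable with those of all 6. Without mutant array 1 the median was 0.15. Fewer cells of a type and less RNA per cell cannot be told apart in whole brain.

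**Figure D3:**
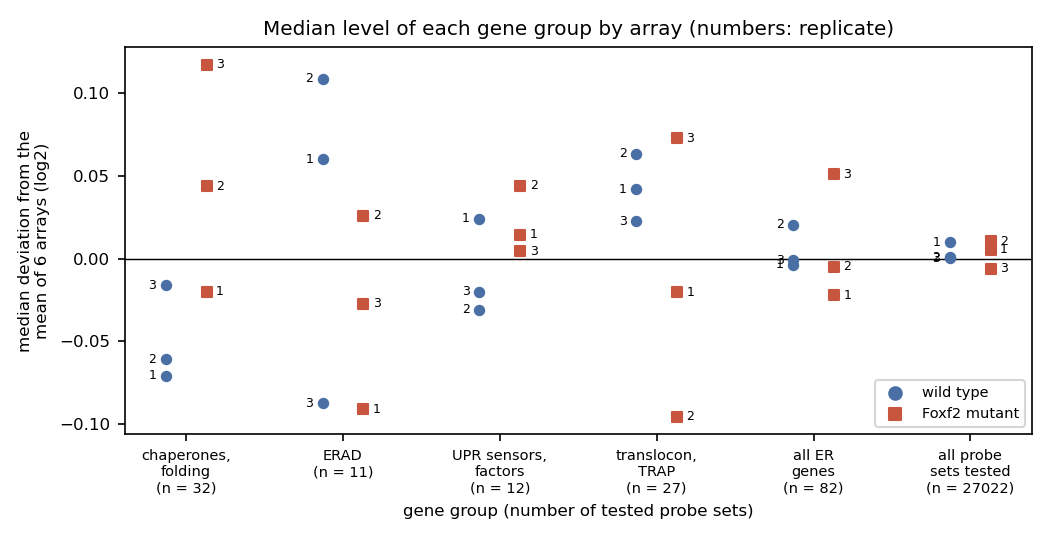
Median log2 deviation of each gene group's tested probe sets from their mean over the 6 arrays (y axis), for the 3 wild-type (circles) and 3 mutant (squares) arrays, numbered by replicate. Chaperones run from -0.07 on wild-type array 1 to 0.12 on mutant array 3, and the mutant values of the translocon group spread from -0.10 to 0.07 around the wild-type values.

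The degradation genes, which pull misfolded proteins out of the ER for the proteasome, gave 0 of 11 probe sets past the threshold by limma, and also 0 at an unadjusted p under 0.05. Herpud1, a ligase scaffold strongly induced by ER stress, read 166, 182 and 153 in wild-type and 214, 177 and 136 in mutant brains on 1448185_at (0.05 ± 0.14, SE), with the highest and the lowest value both in mutant arrays. Its other probe set had -0.07. Sel1l, the adaptor of the ligase Syvn1 (HRD1), had negative differences on 4 of 5 probe sets, down to -0.17, and 1 of these was lower without overlap. Syvn1 had -0.13 and 0.14 on its 2 probe sets, and Edem1, which extracts misfolded glycoproteins from the folding cycle, had 0.04 and -0.11. The median over the 11 was -0.09, or -0.14 with median centring and -0.0064 without mutant array 3.

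Among the sensors and transcription factors, 0 of 12 tested probe sets passed the threshold by limma, and 2 of them were higher at an unadjusted p under 0.05. Xbp1 read 846, 970 and 879 in wild-type and 912, 931 and 875 in mutant brains on its brightest probe set, a difference of 0.01 ± 0.07 (SE). Its 2 other bright probe sets had 0.10 and 0.08 with overlap. The dimmest read 36.1, 34.2 and 39.6 against 44.1, 53.6 and 56.5, separated by 0.35 ± 0.12.

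Atf4 showed the same kind of split. Its plain _at probe set read 701, 578 and 607 in wild-type and 615, 553 and 612 in mutant brains (-0.08 ± 0.08, SE), with overlap. Its _x_at probe set read 167, 167 and 193 against 238, 221 and 286 (0.46 ± 0.11), with every mutant array higher and still short of the threshold. Ddit3, the death-linked factor CHOP downstream of ATF4, read 70.4, 76.2 and 78.9 against 78.2, 58.2 and 94.9 on its brighter probe set (0.01 ± 0.15). The mutant values fell on both sides of the wild-type ones. Trib3, a target of CHOP, was under the brightness limit on both probe sets. One read 6.6, 3.6 and 6.2 against 15.7, 9.7 and 11.3, higher without overlap though its mean lay below the limit of 13.5, and the other overlapped.

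The sensor genes themselves stayed close. Ern1 read 64.1, 55.8 and 61.1 in wild-type and 71.4, 53.1 and 62.6 in mutant brains on its only tested probe set (0.03 ± 0.12, SE). Eif2ak3 read 152, 114 and 129 against 122, 113 and 126 (-0.11 ± 0.11). Atf6 had -0.11 and -0.07. All of these overlapped between groups.

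In the translocon and TRAP group, 1 of 27 tested probe sets fell and 0 rose by limma, and an unadjusted p under 0.05 was reached by 2 higher and 3 lower. Ssr1, the alpha subunit of TRAP, which helps some signal sequences open the Sec61 channel, read 149, 128 and 119 in wild-type and 77.9, 71.1 and 77.9 in mutant brains on 1417764_at. The groups were far apart, with a difference of -0.69 ± 0.10 (SE). Its brightest probe set (1417763_at) read 532, 526 and 515 against 471, 494 and 550 (-0.05 ± 0.07), and mutant array 3 was the highest of all 6. The remaining ones had -0.16 and 0.13, so the fall of Ssr1 also rests on 1 probe set. Of its TRAP partners, Ssr2 had -0.02, Ssr3 -0.03 and -0.11, and Ssr4 -0.17, -0.16 and -0.03. Ssr3 on 1415700_a_at read 807, 845 and 855 against 792, 731 and 792, lower without overlap.

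Sec61a1, the channel-forming subunit, was read by 6 tested probe sets that went both ways. On 1434986_a_at it read 194, 177 and 169 in wild-type and 227, 252 and 253 in mutant brains (0.41 ± 0.08, SE). This was the member probe set nearest to the threshold from outside. On 1455987_at it read 79.5, 78.0 and 76.0 against 67.6, 68.0 and 54.8 (-0.24 ± 0.11), so 2 probe sets of 1 gene were each separated in opposite directions. The brightest had -0.08 with overlap. Sec61b, a small subunit, read 794, 779 and 773 against 629, 790 and 855 (-0.06 ± 0.10), and the mutant arrays alone spanned the whole range.

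Sec63, the partner that recruits BiP to the channel, read 338, 282 and 284 in wild-type and 260, 225 and 197 in mutant brains on its brightest probe set. All mutant arrays were lower, by 0.38 on the log2 scale ± 0.11 (SE), without passing the threshold. Its 4 other probe sets lay between -0.08 and 0.06. Sec62, which works with Sec63, had -0.01 on its brightest probe set and 0.22 on 1455698_at, which read 326, 309 and 309 against 395, 340 and 371. The brightest probe sets of all 8 measured genes of this group had negative differences, from -0.38 to -0.01. This was 7 of 8 after quantile normalization and 5 of 8 without mutant array 1. The median over the 27 was -0.07, or -0.12 with median centring and -0.12 without mutant array 3.

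Probe sets of 1 gene often gave unlike differences, and the part of array spread in this was not tested. Of all 82 tested probe sets 58.5% were not the brightest of their gene, and of the 18 with separated groups 66.7%. Of the 12 probe sets higher without overlap, 4 were the brightest of their gene (Hyou1, Hsp90b1, Calr and Dnajb9) and 8 were not. Of the 6 lower without overlap, 2 were the brightest (Manf and Sec63). Among the 22 genes with several tested probe sets, 16 had differences of both signs, and the median span within a gene was 0.27 log2 units. Signs can differ through the spread between arrays alone, and the count of genes to be had that way was not computed. The median SD of a member probe set among arrays of 1 group was 0.10 in wild-type and 0.12 in mutant brains. Such an SD is a different measure from a span of several group differences, so they are not compared here. Of the 6 tested _x_at member probe sets, 3 were higher and 0 lower without overlap. Among all tested _x_at probe sets the shares were 28.8% and 5.40%. One brightest probe set per gene left 15 of 34 members with positive and 19 with negative differences, a median of -0.02, against -0.01 over 12577 genes.

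Members with an ERSE or ERSE-II went both ways. The brightest probe sets of these 10 genes had 6 positive and 4 negative differences, from -0.20 in Creld2 to 0.29 in Hsp90b1, with a median of 0.04. The 19 tested members that had a window with neither element had a median of -0.02, with 8 positive and 11 negative. Hsp90b1, the only member with 2 ERSE matches, had the highest value of these. The 4 genes with a match nearest to the start, Dnajb11, Syvn1, Herpud1 and Hspa5, had -0.16, -0.13, 0.05 and -0.09. Outside the list, 39 genes had a window with either element, and 12 of them were tested on 32 probe sets. Of these 32, 1 rose, a probe set of the galectin-like gene Lgalsl at 0.64, whose brightest probe set had -0.01. The median of the 32 was -0.02. Lgalsl was named after its values were seen, and its probe set did not pass with any 1 array left out, nor with no filter, median centring or no trend.

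**Figure D4:**
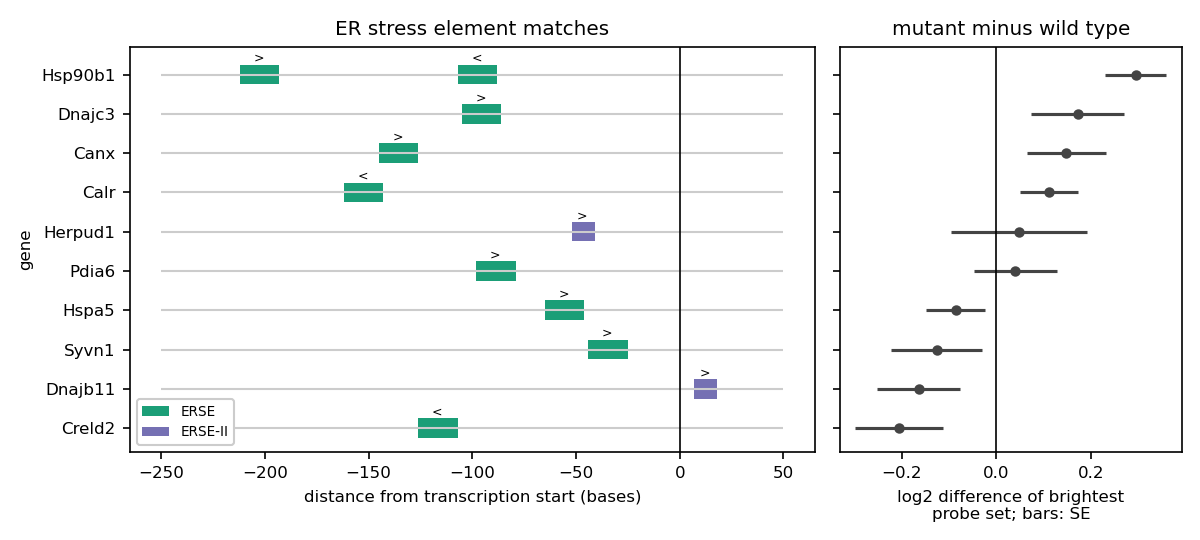
Left, positions of ERSE and ERSE-II matches relative to the transcription start, in bases, with arrowheads for the strand relative to the gene. Right, log2 difference with SE of the brightest probe set of the same gene, which runs from 0.29 in Hsp90b1 at the top to -0.20 in Creld2 at the bottom.

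The wider ER pathway was read through lists of other genes. Of 57 tested probe sets of 26 ATF4 and CHOP target genes, 0 passed by limma (4 higher and 2 lower unadjusted), with a median of -0.01. The 2 largest differences among the brightest probe sets of its genes were dim, Slc7a11, the cystine transporter, with 0.29 ± 0.19 (SE) and Stc2, a secreted stanniocalcin, with 0.26 ± 0.13. Of 46 probe sets of 24 other oxidoreductases and folding factors 0 passed (1 higher and 2 lower unadjusted), with Fkbp7, an ER prolyl isomerase, at 0.24 and Rcn1, a calcium-binding ER protein, at 0.22. Of 32 probe sets of 16 other degradation factors 0 passed, with a median of -0.08. An unadjusted p under 0.05 in limma was reached by 1 higher and 9 lower, where the whole array had 7.78% and 5.80%. Groups were separated for 2 higher (6.25%) and 8 lower (25%), against 10.9% and 9.38% of all tested probe sets. Of the 16 brightest probe sets, 4 had positive and 12 negative differences. Ube2j1, an ER-anchored ubiquitin-conjugating enzyme, had -0.25, and so had Edem2, a mannosidase-like relative of Edem1.

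Genes of targeting, glycosylation and onward transport gave 0 calls by limma. These were 23 oligosaccharyltransferase probe sets (2 higher and 2 lower unadjusted), 26 of signal recognition and signal peptidase (2 and 0), and 41 of ER to Golgi transport (6 and 4). The largest differences among their brightest probe sets were Stt3a, a catalytic subunit of the oligosaccharyltransferase, at 0.46 on an _x_at probe set, Tusc3 at 0.31, Sec11c, a signal peptidase subunit, at 0.31, Srp14 at 0.24, Sec24a, a COPII coat subunit, at 0.41, and Surf4, a cargo receptor, at 0.40. Adjusted p in limma ran from 0.0604 for Sec24a to 0.360 for Sec11c. With offset 1 or the 60th percentile filter Sec24a and Stt3a passed, at 0.0428 to 0.0474, and Stt3a also passed with the replicate block. Of the other peroxiredoxins, Prdx2 had 0.09 and Prdx3 -0.09, with 0 of 3 probe sets past the threshold and 0 at an unadjusted p under 0.05 by limma.

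Chaperones outside the ER were read beside them. Of 31 tested probe sets of 13 cytosolic heat shock genes, 3 rose by limma (6 higher and 1 lower unadjusted). These were 9.68% of the list, which was chosen with earlier results known, against 0.366% of all tested probe sets. Groups were separated for 7 higher (22.6%) and 2 lower (6.45%), where the whole array had 10.9% and 9.38%. The rises were one each of Hspa8, Hsp90aa1 and Dnaja1, which encode the constitutive HSP70, an HSP90 and an HSP40 partner. Hspa8 read 1694, 1725 and 1774 in wild-type and 2586, 2339 and 2577 in mutant brains on 1420622_a_at (0.53 ± 0.06, SE, adjusted p = 0.0199). Dnaja1 had 0.75 ± 0.10 on an _s_at probe set (adjusted p = 0.0227) and Hsp90aa1 0.38 ± 0.06 (adjusted p = 0.0482). The other tested probe sets of these genes lay between -0.07 and 0.11, so here too the rise was on 1 probe set of each gene. The median of the 31 was 0.00. The summed level of the brightest probe sets was 15591 to 16455 in wild-type and 17108 to 17526 in mutant brains, and the groups overlapped after quantile normalization. With 1 array left out none of these 3 passed, except Dnaja1 without wild-type array 3. All 3 calls were also lost without the variance trend. Hsp90aa1 passed in 6 of 17 alternatives, with adjusted p in limma from 0.0164 to 0.202, and was lost with quantile normalization, median centring, no filter and 1 probe set per gene too. Of 20 probe sets of mitochondrial chaperones and proteases 0 passed by limma (3 higher and 1 lower unadjusted), with the unfoldase Clpx at 0.48 and the protease Yme1l1 at 0.47. Clpx passed with offset 1 and with the 60th percentile filter.

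Summed markers of some other cell types also differed between the groups, and their part in the results was not tested. Choroid plexus and ependymal markers, from a secretory epithelium, summed to 6134 to 6875 in wild-type and 6953 to 7318 in mutant brains, with 0 of 12 probe sets past the threshold by limma (3 higher and 0 lower unadjusted) and Kl below the brightness limit. The largest differences among the brightest probe sets of these genes were Clic6 and Rsph1, both at 0.21. Endothelial and pericyte markers summed to 2015 to 2365 against 1633 to 1795, with 0 of 20 past the threshold (0 higher and 5 lower unadjusted), Slco1c1 at -0.75 and Cldn5 at -0.43. Both passed with offset 1 and with the 60th percentile filter. Astrocyte and radial glia markers summed to 7316 to 8036 against 8326 to 8772, with 1 of 21 past the threshold, the brightest probe set of Vim, an _x_at one that rose by 0.45. The other Vim probe sets had 0.21, higher without overlap, and -0.03. That call was lost with any 1 array left out and with no filter, median centring, no trend or 1 probe set per gene. Meningeal and fibroblast sums overlapped, at 2131 to 2252 against 2088 to 2634, with Foxd1 at 0.29 and Foxc2 at 0.28. Microglial sums were 643 to 757 against 694 to 770, with Lyz2 at 0.41 and C1qb at 0.20. Neuronal sums were 15963 to 16018 against 15984 to 16713. The brightest probe sets of the 12 neuronal genes had 6 positive and 6 negative differences, down to -0.27. The 2 largest were those of Tbr1 at 0.36 and Neurod6 at 0.32. Erythroid sums were 155 to 246 against 83.3 to 350, with Alas2 at -0.37 and Hbb-y at -0.36. The muscle genes Mylpf and Ckm had 1.25 and 1.23 and the pituitary genes Gh and Cga -1.21 and -0.85, each set by the single arrays named above. In the neuronal, microglial, meningeal, erythroid, muscle and pituitary lists 0 probe sets passed by limma, and at an unadjusted p under 0.05 the neuronal list had 3 higher and 3 lower, the microglial list 3 higher, and the others 0.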

How the data were processed

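The deposited table holds MAS5 intensity values, with MAS5 named in the submitters' processing notes. The sources used here give neither its version nor a genome build. The values show that the authors' arrays are already scaled to a common trimmed mean, so no further normalization was applied, and a change of total RNA per brain cannot be seen. Array medians still differed by group, at 23.1 to 23.6 in wild-type and 24.3 to 25.5 in mutant brains. Intensities under 16 made up 43.5 to 44.0% of wild-type and 41.5 to 42.5% of mutant arrays. Median centring, one of the alternatives, removes the difference in medians. After 64 control probe sets were left out, 45037 were fitted in limma 3.58.1 (R 4.3.3: lmFit, then eBayes with a variance trend) on log2(intensity + 16), two-sided. P-values were adjusted by Benjamini-Hochberg among the 27022 whose mean intensity reached the 40th percentile (13.5), at a threshold of 0.05. Probe sets were named by the platform annotation where it gave 1 gene. The fit was tested on simulated data. The share of changes recovered there is not given here, and a probe set that did not pass may still differ. The members, gene lists and rule for named genes were chosen with earlier results of these data known. Any member could be named. In other lists, genes past the threshold were named, otherwise those with the 2 largest differences of their brightest probe sets. Promoter windows came from RefSeq, and the motif search was added after the values were seen. Arrays have no counting depth, and the small number of arrays limits the precision. Alternatives covered the offset, filter, scaling, variance trend, array weights, replicate block, probe set choice and each array left out.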

Additional observations from a re-analysis of the deposited data

Results flagged for a closer look

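Control probe sets for 18S ribosomal RNA, which entered no comparison here, read higher on all 3 mutant arrays than on any wild-type array for 2 of 3 probe sets. The ratio of mean intensity, mutant over wild type, was 1.38 on one and 1.42 on the other. These controls were not used in scaling here, and their part in the values of the ER genes was not tested.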

How the results depend on the processing

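The 4 member calls (3 higher, 1 lower) stood with offset 1, the 60th percentile filter, quantile normalization, array weights, the replicate block and a fit made after the filter, which was chosen after seeing the data. The log2 differences of these 4 probe sets kept their sign in all alternatives. Higher member calls numbered 1 with offset 64, 1 with 1 probe set per gene, and 0 without the filter, with median centring, without the variance trend and with plain _at probe sets only. Lower member calls numbered 0 with offset 64, without the filter, without the trend, with 1 probe set per gene and with plain _at probe sets. At an unadjusted p under 0.05 limma gave 11 higher and 3 lower without the trend. Leaving out 1 array gave 0 to 1 higher and 0 to 0 lower member calls, with 8 to 12 higher and 2 to 5 lower unadjusted. The member median was -0.083 with median centring and -0.042 to 0.00099 with 1 array left out.

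Over all probe sets, 99 higher and 6 lower became 169 and 12 with offset 1, 61 and 3 with offset 64, 51 and 1 without the filter, 201 and 19 with the replicate block, 18 and 0 with 1 probe set per gene, 7 and 1 with plain _at probe sets, 189 and 11 with the fit after the filter, and 0 and 0 without the trend (2212 and 1291 unadjusted). Higher calls were 159 with the 60th percentile filter and 50 with median centring. With 1 array left out they were 0 to 34, and lower calls 0 to 0. The median moved to 0.014 without the filter, -0.027 with the 60th percentile filter, -0.018 with quantile normalization, -0.060 with median centring, -0.019 with 1 probe set per gene, and ran from -0.0098 to 0.0011 with 1 array left out. The cause of these shifts was not tested. Deviations of arrays with the same replicate number correlated at 0.18, 0.13 and 0.09, and each array correlated best with its own number, a hint of pairing from the data and not from the design.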
